A study of Homo sapiens with 36 samples.

Results

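The transcripts described here encode members of the WNT pathway in human embryonic stem cells of the line HUES6, which is an established cell line: the Frizzled receptors FZD7, FZD3, FZD5 and FZD2, the co-receptors LRP6 and ROR2, the ligands WNT3 and WNT5A, the effector beta-catenin (CTNNB1) and the target and inhibitor AXIN2. They were chosen by transcript identifier, 1 for each gene, and all 10 were found among 223367 transcript rows. The identifiers were ENST00000286201 (FZD7), ENST00000240093 (FZD3), ENST00000295417 (FZD5), ENST00000315323 (FZD2), ENST00000261349 (LRP6), ENST00000375708 (ROR2), ENST00000225512 (WNT3), ENST00000264634 (WNT5A), ENST00000349496 (CTNNB1) and ENST00000307078 (AXIN2). HUES6 cells either lacked RBPMS, an RNA-binding protein (KO), or were unmodified (WT), and both genotypes were grown in FTDA medium and exposed to cycloheximide at 100 ng/ml for 5 min. RNA was sequenced from the unfractionated lysate (Input) and from 5 fractions of a polysome gradient, which orders RNA by the ribosomes bound to it: 40S, 80S, disome, Polysome1 and Polysome2. Each genotype was measured in 3 cultures, which gave 36 libraries in 12 groups of 3. Whether the KO cultures came from 1 clone, and whether cultures were grown on separate days, is not stated in the labels, so the p-values measure only the spread between these samples, which may be technical.

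WNT proteins are secreted signals that bind Frizzled receptors at the cell surface, together with a co-receptor. When LRP6 is engaged, a complex built on axin proteins stops marking beta-catenin for destruction, and beta-catenin then activates target genes with TCF/LEF factors; AXIN2 is such a target and dampens the signal in return. ROR2 is a receptor tyrosine kinase that binds WNT5A and acts outside the beta-catenin branch. In human pluripotent cells this pathway is known for steering exit toward mesendoderm, and FZD7 is known as an abundant Frizzled of undifferentiated cells.

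Values were TPM, a length-corrected share of each library, so levels of different transcripts can be set side by side. Every library summed to 1000000, equal amounts of RNA went into each library, and the sequencing depth behind a value is unknown; the values therefore describe what share of a fraction each transcript takes, not how much RNA the fraction holds. Each value belongs to a single transcript. The other transcripts of these genes, the level of RBPMS and markers of embryonic stem cells or of other cell types were not analysed here, because the tables used here pair no other identifier with a gene. The libraries were uneven: KO cultures 1 and 2 held 18666 and 21914 transcripts at 1 TPM or more in Input, against 34899 to 38389 in WT Input, while KO culture 3 held 31380. Totals of the ERCC spike-in RNAs were higher in every KO library than in every WT library of the same fraction, at 306 to 1271 TPM in KO Input and 33.4 to 166 TPM in WT Input. In KO disome culture 1, 10 transcripts took 70.5% of all TPM.

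Among the members, FZD7 was by far the most abundant, and the ligands were the least. The mean over 36 libraries was 87.3 TPM for FZD7, a level above that of 97.5% of the 51052 transcripts tested. FZD2 averaged 14.3 TPM and FZD5 9.17 TPM, above 88.7% and 84.4% of tested transcripts. ROR2 averaged 3.32 TPM and FZD3 1.71 TPM. AXIN2, CTNNB1 and LRP6 averaged 1.45, 1.26 and 0.685 TPM. The CTNNB1 value is that of the listed transcript and not the total of the gene. WNT3 averaged 0.316 TPM, reached 1 TPM in 3 libraries and was listed at 0 in 9. WNT5A never reached 1 TPM: its highest value was 0.991 TPM, it was listed at 0 in 28 of 36 libraries, and it was therefore not tested. The remaining 9 members passed the filter, which asked for at least 1 TPM in at least 3 libraries. The LRP6 row was identical to that of 1 other transcript in all 36 libraries, so its estimate may be split between the pair.

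**Figure D1:**
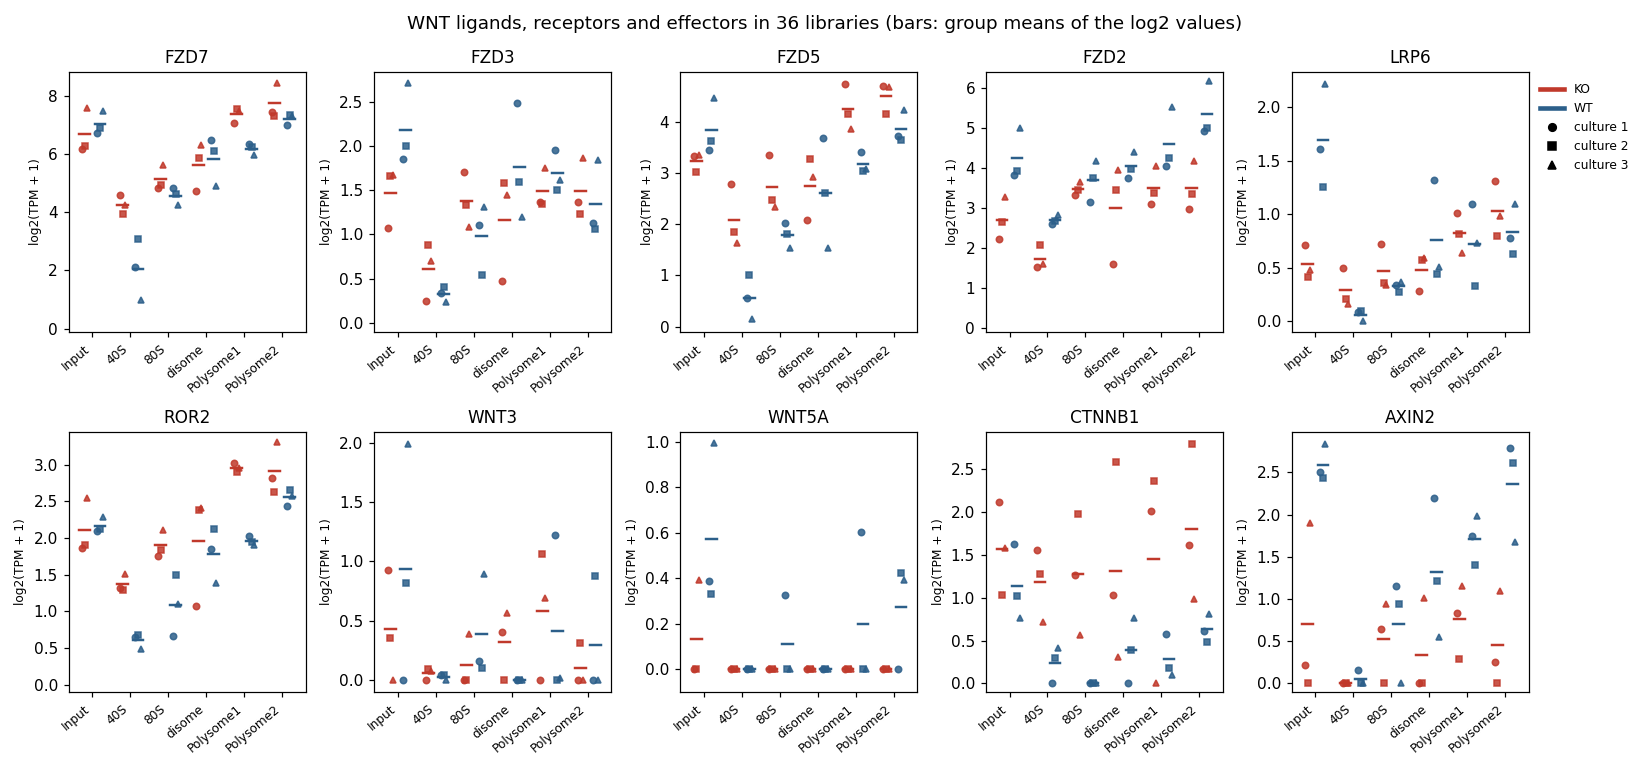
Level of each of the 10 transcripts in every library, as log2(TPM + 1), with KO (red) to the left of WT (blue) in each fraction; symbols mark cultures 1, 2 and 3 and bars the group means of the log2 values. FZD7 has its lowest level in 40S in all 6 cultures, FZD2 and AXIN2 lie lower in KO than in WT in Input and Polysome2, and WNT5A stays under 1 TPM in every library.

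Some members ran in parallel over the 12 groups. FZD7, FZD5 and ROR2 had nearly the same profile, low in 40S and high in Polysome2: Pearson's r of group means of log2(TPM + 1) was 0.98 between FZD7 and FZD5, 0.98 between FZD5 and ROR2 and 0.95 between FZD7 and ROR2. FZD2, another Frizzled receptor, ran closest to AXIN2 (r = 0.86), and its r with FZD7 was 0.52. FZD3 and LRP6 were each other's closest member (r = 0.86), CTNNB1 was closest to ROR2 (r = 0.65) and WNT3 to LRP6 (r = 0.67). The lowest r was -0.35, between FZD2 and CTNNB1. These correlations are descriptions over 12 group means that share libraries, with no test. Promoter sequence was at hand for 5 members, and FZD5 and ROR2 are shown because their profiles were alike. The 250 bases before the start of each gene are given 5′ to 3′ on the gene's strand (RefSeq, GRCh38.p14), with matches to the GC box GGGCGG on either strand in capitals; FZD5 lies at chr2:207769907-207770156 and ROR2 at chr9:91950229-91950478, both on the minus strand.
FZD5 promoter: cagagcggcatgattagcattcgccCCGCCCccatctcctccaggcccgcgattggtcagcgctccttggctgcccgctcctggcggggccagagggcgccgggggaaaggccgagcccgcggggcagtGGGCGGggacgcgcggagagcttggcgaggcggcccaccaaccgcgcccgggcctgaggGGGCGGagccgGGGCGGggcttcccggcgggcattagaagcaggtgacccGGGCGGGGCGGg
ROR2 promoter: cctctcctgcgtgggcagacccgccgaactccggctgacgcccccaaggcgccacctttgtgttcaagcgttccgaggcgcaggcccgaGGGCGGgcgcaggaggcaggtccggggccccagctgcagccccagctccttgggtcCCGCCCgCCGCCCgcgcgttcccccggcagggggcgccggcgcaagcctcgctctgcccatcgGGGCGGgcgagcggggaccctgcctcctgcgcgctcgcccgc
FZD5 held 6 matches to GGGCGG or its reverse complement CCGCCC, counting overlapping ones, and ROR2 held 4; the G and C content was 76.8% and 78.0%. Of 35116 promoter sequences of the same length, 42.64% held at least 1 such match. The TCF/LEF sequence ATCAAAG and the TATA box TATAAA had no match on either strand in these 2 windows, and 2.26% and 10.7% of all promoters held them. The CCAAT box CCAAT, found in 32.0% of promoters, had 1 match in FZD5, on the reverse strand as ATTGG, and none in ROR2. A match is a description of the letters and not evidence of a site in use. No background for the number of matches or for the G and C content is given here. Whether these sequences bear on the likeness of the profiles was not tested.

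FZD7, FZD5, ROR2, FZD2 and AXIN2 were more abundant in WT Polysome2, a fraction of mRNAs with several ribosomes, than in WT 80S, the fraction of single ribosomes. FZD7 had 127, 159 and 155 TPM in WT Polysome2, cultures 1 to 3, against 27.2, 23.3 and 17.9998 TPM in WT 80S. FZD5 had 12.1, 11.5 and 17.7 TPM in WT Polysome2, against 3.06, 2.49 and 1.90 TPM in WT 80S. For both receptors the groups were far apart. ROR2 had 4.43, 5.28 and 4.96 TPM in WT Polysome2, against 0.589, 1.83 and 1.15 TPM in WT 80S. FZD2 had 29.2, 30.7 and 71.0 TPM in WT Polysome2, against 7.90, 12.5 and 16.9 TPM in WT 80S. The separation of FZD2 was narrower, since WT 80S culture 3 reached 16.9 TPM. AXIN2 had 5.92, 5.13 and 2.20 TPM in WT Polysome2, against 1.23, 0.923 and 0 TPM in WT 80S.

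The test was limma on log2(TPM + 1), fitted over all transcripts and 12 groups with Benjamini-Hochberg adjustment, and a call is an adjusted p under 0.05; differences on this scale understate the change of low transcripts. In WT Polysome2 against WT 80S, 5 of 9 members were called higher and none lower. The background was 8.63% of all tested transcripts called higher. The log2 difference was 2.65 ± 0.56 for FZD7 (SE; limma adjusted p = 0.00407), 2.07 ± 0.48 for FZD5 (adjusted p = 0.00748) and 1.47 ± 0.35 for ROR2 (adjusted p = 0.00795). It was 1.67 ± 0.55 for FZD2 (adjusted p = 0.0453) and 1.66 ± 0.46 for AXIN2 (adjusted p = 0.0189). The median over the 9 members was 1.47, and over all tested transcripts 0.23. LRP6 (0.51 ± 0.26), CTNNB1 (0.63 ± 0.53), FZD3 (0.36 ± 0.37) and WNT3 (-0.09 ± 0.37) did not pass. With 3 cultures the calls were thin: without WT culture 1 or WT culture 2 none of the 5 passed, and without WT culture 3 FZD7 alone did. FZD2 also lost its call after median-of-ratios scaling (adjusted p = 0.209), as did FZD5 (adjusted p = 0.0661).

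In KO Polysome2 against KO 80S, FZD7 again stood higher and was the single member called. It had 172, 157 and 346 TPM in KO Polysome2, cultures 1 to 3, against 27.4, 29.5 and 48.2 TPM in KO 80S. The log2 difference was 2.60 ± 0.56 (limma adjusted p = 0.0118), where 1.4% of all tested transcripts were called higher. FZD5 had 24.9, 16.7 and 24.8 TPM in KO Polysome2, against 9.15, 4.56 and 4.04 TPM in KO 80S (1.79 ± 0.48, adjusted p = 0.0576). ROR2 had 6.04, 5.18 and 8.86 TPM in KO Polysome2, against 2.38, 2.56 and 3.30 TPM in KO 80S (1.02 ± 0.35, adjusted p = 0.196). The groups of both receptors were apart, and with culture as a replicate block all 3 of these members were called, FZD5 at an adjusted p of 0.0206 and ROR2 at 0.0436. The share of all transcripts called in the block fit is not given here. Without KO culture 2, WT culture 1 or WT culture 2, FZD7 was not called either (adjusted p between 0.0532 and 0.154).

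FZD2 and AXIN2 were higher in WT Polysome2 than in WT 80S. In KO the values of FZD2 were flat, and those of AXIN2 were near 0. AXIN2 was listed at 0 in 8 of 18 KO libraries, and at that level a difference between fractions could hardly show. FZD2 had 6.79, 9.12 and 16.9 TPM in KO Polysome2, against 8.91, 9.84 and 11.5 TPM in KO 80S, a log2 difference of 0.02 ± 0.55. AXIN2 had 0.188, 0 and 1.14 TPM in KO Polysome2, against 0.569, 0 and 0.926 TPM in KO 80S, a log2 difference of -0.08 ± 0.46. Within cultures, Polysome2 exceeded 80S for FZD2 and AXIN2 in 1 of 3 KO cultures and in 3 of 3 WT cultures. KO culture 2 was a tie for AXIN2, at 0 TPM in both fractions. For FZD7, FZD5, ROR2, LRP6 and CTNNB1 Polysome2 exceeded 80S in all 6 cultures. For LRP6 and CTNNB1 this rests on low values. CTNNB1 was listed at 0 in all 3 WT 80S libraries. LRP6 had 0.208 to 0.288 TPM in WT 80S and 0.261 to 0.649 TPM in KO 80S. The KO minus WT difference of Polysome2 against 80S was tested directly, and it called none of the 9 members: -1.64 ± 0.78 for FZD2 (limma adjusted p = 0.548) and -1.74 ± 0.65 for AXIN2 (adjusted p = 0.395), which were the 2 members at an unadjusted p under 0.05. In this test 0.0901% of all tested transcripts were called, and 4551 of 51052 had an unadjusted p under 0.05. So the profiles of FZD2 and AXIN2 are not shown to differ between the genotypes.

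**Figure D2:**
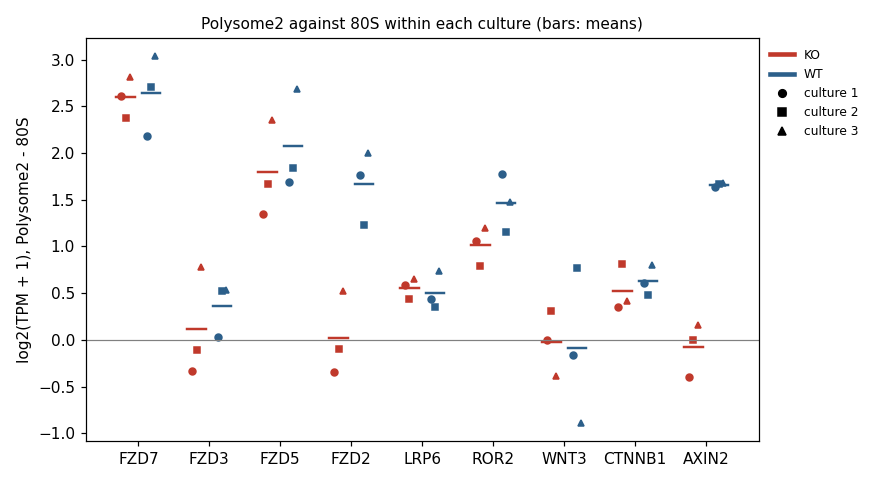
Difference in log2(TPM + 1) between Polysome2 and 80S of the same culture for the 9 tested transcripts, with KO (red) left of WT (blue), symbols for cultures 1 to 3 and bars for means. FZD7, FZD5, ROR2, LRP6 and CTNNB1 lie above 0 in all 6 cultures, whereas FZD2 and AXIN2 lie above 0 in 1 of 3 KO cultures and 3 of 3 WT cultures. AXIN2 in KO culture 2 had 0 TPM in both fractions and lies at 0. CTNNB1 had 0 TPM in all 3 WT 80S libraries.

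Set against WT Input, the members were scarce in the 40S fraction, named for the small ribosomal subunit. FZD7 had 3.31, 7.44 and 0.985 TPM in WT 40S, cultures 1 to 3, against 104, 117 and 177 TPM in WT Input (log2 difference -4.97 ± 0.56, limma adjusted p = 1.00e-07). FZD5 had 0.465, 0.997 and 0.107 TPM in WT 40S, against 9.89, 11.3 and 21.0 TPM in WT Input (-3.28 ± 0.48, adjusted p = 6.43e-06). AXIN2 had 0.116, 0 and 0 TPM in WT 40S, against 4.67, 4.42 and 6.13 TPM in WT Input (-2.54 ± 0.46, adjusted p = 7.79e-05). Their groups did not come near each other. In all, 8 of 9 members were called lower in WT 40S, where 42.5% of all tested transcripts were, and CTNNB1 was the member not called. FZD2 was the least depleted Frizzled, with 5.00, 5.33 and 6.09 TPM in WT 40S against 13.04, 14.2 and 30.8 TPM in WT Input (-1.55 ± 0.55, adjusted p = 0.0244). The direction of FZD2 turned under quantile normalization (0.34) and median-of-ratios scaling (0.88), and that of ROR2 under quantile normalization (0.04). Under scaling to the ERCC total both stayed lower in WT 40S, at -2.85 for FZD2 (adjusted p = 0.0554) and -2.10 for ROR2 (adjusted p = 0.0516), without a call. WNT3, at -0.91 ± 0.37 and an adjusted p of 0.0459, kept its call in 2 of 14 alternatives.

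In WT 80S against WT Input, 6 of 9 members were called lower, FZD7, FZD3, FZD5, LRP6, ROR2 and AXIN2, against a background of 19.4%. FZD7 fell by 2.47 ± 0.56 on the log2 scale (limma adjusted p = 0.00180) and FZD5 by 2.05 ± 0.48 (adjusted p = 0.00262). Without WT culture 3 only FZD7 and LRP6 of the 6 were called. LRP6, the co-receptor for beta-catenin signalling, was lower than in Input in every WT fraction. It had 0.711, 0.540 and 1.14 TPM in WT Polysome2, against 2.05, 1.39 and 3.66 TPM in WT Input. It was the member called lower in WT disome (-0.94 ± 0.26, adjusted p = 0.0148), in WT Polysome1 (-0.98 ± 0.26, adjusted p = 0.0127) and in WT Polysome2 (-0.86 ± 0.26, adjusted p = 0.0293). Backgrounds called lower were 10.7%, 8.83% and 8.81%. These LRP6 calls were lost without WT culture 2 or WT culture 3, that in WT Polysome2 also without WT culture 1 or KO culture 2, and under scaling to the ERCC total the 3 differences turned to 0.20, 1.06 and 1.88. With culture as a replicate block, 4 members were called lower in WT disome, FZD7, FZD5, LRP6 and AXIN2, and in WT Polysome2 FZD2 was called higher (1.11 ± 0.37, adjusted p = 0.0300) beside LRP6 lower. Without WT culture 1 the WT disome comparison called 4 members and that of WT Polysome1 called 2, and without KO culture 1 or KO culture 3 that of WT disome called 2. The backgrounds above belong to the fit on all libraries without a block. Those of the block fit and of the fits without a culture are not given here.

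In the unfractionated Input, AXIN2, LRP6 and FZD2 made up a lower share of the library in KO than in WT. AXIN2 had 0.167, 0 and 2.72 TPM in KO Input, cultures 1 to 3, against 4.67, 4.42 and 6.13 TPM in WT Input. The genotypes did not overlap, and KO culture 3 was the nearest to WT. LRP6 had 0.640, 0.333 and 0.395 TPM in KO Input, against 2.05, 1.39 and 3.66 TPM in WT Input. FZD2 had 3.65, 5.21 and 8.61 TPM in KO Input, against 13.04, 14.2 and 30.8 TPM in WT Input. For LRP6 and FZD2 too the groups were apart. In bulk libraries such as these, a transcript present in fewer cells and one at a lower level in each cell cannot be told apart.

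The log2 difference, KO minus WT, in Input was -1.89 ± 0.46 for AXIN2 (limma adjusted p = 0.00407), -1.16 ± 0.26 for LRP6 (adjusted p = 0.00234) and -1.54 ± 0.55 for FZD2 (adjusted p = 0.0488). These were the 3 of 9 members called lower in KO Input, none was called higher, and 18% of all tested transcripts were called lower. The median over all tested transcripts was -0.51 on this scale, and that over the members was -0.60. FZD3 and FZD5 lay below the median of all transcripts too, as AXIN2, LRP6 and FZD2 did. WNT3 was level with it, and 3 of 9 members lay above it. FZD3 (-0.72 ± 0.37), FZD5 (-0.60 ± 0.48), WNT3 (-0.51 ± 0.37), FZD7 (-0.36 ± 0.56), ROR2 (-0.06 ± 0.35) and CTNNB1 (0.43 ± 0.53) did not pass. The genotypes did not overlap for 5 of 9 members in Input, FZD3, FZD5, FZD2, LRP6 and AXIN2, all lower in KO, and for 35.1% of all tested transcripts in either direction. Without KO culture 1 or without KO culture 2, LRP6 alone of the 3 was called (adjusted p = 0.00801 and 0.0463), and FZD2 was not called without any 1 of the WT cultures either. LRP6 was not called after quantile normalization (-0.39, adjusted p = 0.449), median-of-ratios scaling (-0.71, adjusted p = 0.0560) or scaling to the ERCC total (-1.86, adjusted p = 0.0508), and FZD2 kept its call in 3 of 16 alternatives. AXIN2 kept its call under all 3 of these scalings. Without KO cultures 1 and 2 together, which held fewer transcripts, the difference was -0.70 for AXIN2, -0.98 for FZD2 and -1.21 for LRP6, and none was called.

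**Figure D3:**
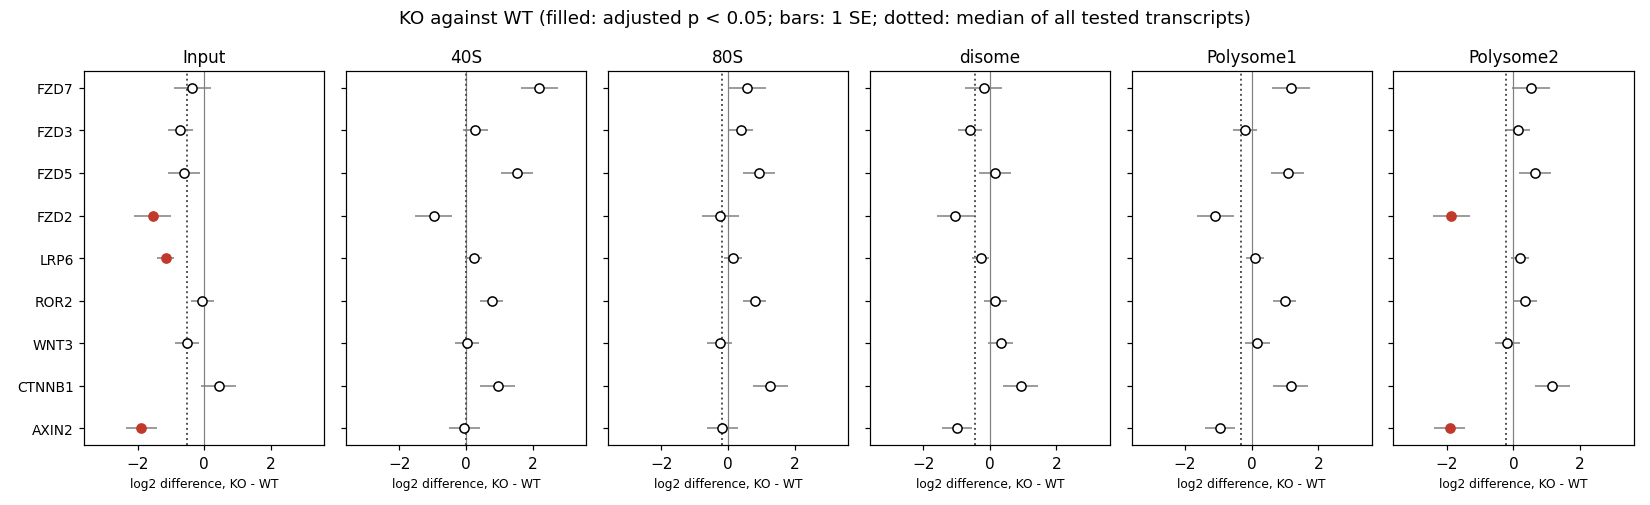
KO minus WT difference in log2(TPM + 1) for the 9 tested transcripts in each of 6 fractions, with bars of 1 SE; filled points have an adjusted p under 0.05, and the dotted line is the median of all tested transcripts. The filled points are FZD2, LRP6 and AXIN2 in Input and FZD2 and AXIN2 in Polysome2, all below 0.

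The lower level of FZD2 and AXIN2 in KO was seen again in Polysome2. FZD2 had 6.79, 9.12 and 16.9 TPM in KO Polysome2, cultures 1 to 3, against 29.2, 30.7 and 71.0 TPM in WT Polysome2. AXIN2 had 0.188, 0 and 1.14 TPM in KO Polysome2, against 5.92, 5.13 and 2.20 TPM in WT Polysome2. The groups of neither transcript overlapped. The log2 difference was -1.87 ± 0.55 for FZD2 (limma adjusted p = 0.0449) and -1.91 ± 0.46 for AXIN2 (adjusted p = 0.0157), 2 of 9 members called lower and none higher, where 3.62% of all tested transcripts were called lower. Neither was called without KO culture 1, KO culture 2, WT culture 1 or WT culture 2, and without WT culture 3 AXIN2 alone was (adjusted p = 0.0155). Without KO cultures 1 and 2 together the differences were -1.20 for FZD2 and -1.26 for AXIN2, neither called. The other members had values from -0.19 for WNT3 to 1.17 ± 0.53 for CTNNB1 and did not pass. For CTNNB1, KO Polysome2 held 2.06, 5.95 and 0.983 TPM, against 0.524, 0.393 and 0.748 TPM in WT Polysome2. Non-overlapping members in Polysome2 numbered 3 of 9, CTNNB1 above and FZD2 and AXIN2 below, against 23.6% of all tested transcripts.

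LRP6 was the member called for a genotype difference between Polysome2 and Input. It had 1.48, 0.732 and 0.974 TPM in KO Polysome2, against 0.640, 0.333 and 0.395 TPM in KO Input. In WT the order was the reverse, with 0.711, 0.540 and 1.14 TPM in WT Polysome2 against 2.05, 1.39 and 3.66 TPM in WT Input. The KO minus WT difference of Polysome2 against Input was 1.36 ± 0.37 (limma adjusted p = 0.0489), the only call among the 9 members, with 2.2% of all tested transcripts called higher. The median of all tested transcripts was 0.27 and that of the members 0.74. In Polysome2 itself LRP6 had a KO minus WT difference of 0.20 ± 0.26. The call was lost without any 1 of the 6 cultures (adjusted p between 0.0786 and 0.263) and the value turned to -1.27 under scaling to the ERCC total.

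In the 40S, 80S, disome and Polysome1 fractions, limma called none of the 9 members between the genotypes. Of all tested transcripts, 0.0235%, 0.599%, 2.78% and 5.42% were called in either direction. At an unadjusted p under 0.05 there were 3, 2, 1 and 5 members. The like counts over all 51052 tested transcripts were 2886, 8576, 11047 and 14312. FZD7 had 22.9, 14.4 and 17.9 TPM in KO 40S, against 3.31, 7.44 and 0.985 TPM in WT 40S (2.20 ± 0.56, adjusted p = 0.195). FZD5 had 5.89, 2.61 and 2.11 TPM in KO 40S, against 0.465, 0.997 and 0.107 TPM in WT 40S (1.53 ± 0.48, adjusted p = 0.405). All KO values of both receptors exceeded all WT values in 40S, as they did for LRP6, ROR2 and CTNNB1, while those of FZD2 lay below. These 6 of 9 non-overlapping members compare with 11.7% of all tested transcripts. FZD7 in 40S was called under 5 of the alternatives, which were a pseudocount of 0.1, a filter of 10 TPM, quantile normalization, median-of-ratios scaling and the fit without KO culture 3 (adjusted p between 0.00825 and 0.0498). Under scaling to the ERCC total its value turned to -0.17.

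ROR2, the WNT5A receptor, had 7.08, 6.42 and 6.75 TPM in KO Polysome1, against 3.06, 2.84 and 2.75 TPM in WT Polysome1. Its replicates were tight and the genotypes far apart, yet the difference of 0.997 ± 0.35 did not pass (limma adjusted p = 0.0741). It was called after quantile normalization (1.20, adjusted p = 0.0347) and without KO culture 3 (adjusted p = 0.0291), and it turned to -2.70 under scaling to the ERCC total, as the values of FZD7 (-3.06) and FZD5 (-2.98) in Polysome1 did. FZD7 had 133, 186 and 175 TPM in KO Polysome1, against 80.2, 74.0 and 61.0 TPM in WT Polysome1 (1.18 ± 0.56, adjusted p = 0.164). FZD5 had 25.9, 16.7 and 13.5 TPM in KO Polysome1, against 9.63, 7.18 and 7.44 TPM in WT Polysome1 (1.08 ± 0.48, adjusted p = 0.146). Genotypes did not overlap for 4 of 9 members in Polysome1, FZD7, FZD5 and ROR2 above and AXIN2 below, and for 28.8% of all tested transcripts. In 80S, FZD7, FZD5, ROR2 and CTNNB1 lay above WT in every KO culture, 4 of 9 members. Of 51052 tested transcripts 3622 lay above and 6550 below, 19.9% in either direction. For FZD7 the gap in 80S was narrow, with 27.4 TPM as the lowest KO value and 27.2 TPM as the highest WT value. Its difference there was 0.57 ± 0.56 (limma adjusted p = 0.647). Under scaling to the ERCC total CTNNB1 (0.74) kept its sign in 80S, and FZD7 (-2.24), FZD5 (-1.42) and ROR2 (-1.05) turned. In disome 0 of 9 members were apart, against 14.2%.

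The values of the beta-catenin transcript were uneven between KO cultures. It had 1.41, 2.95 and 0.485 TPM in KO 80S and was listed at 0 in all 3 WT 80S libraries. In KO Polysome1 it had 3.03, 4.14 and 0 TPM, against 0.489, 0.134 and 0.0681 TPM in WT Polysome1. KO culture 3 was the lowest of the KO cultures in all 5 gradient fractions. Without KO culture 3, CTNNB1 was called higher in KO in 80S (1.62), disome (1.42), Polysome1 (1.90) and Polysome2 (1.58). Without that culture AXIN2 was called lower in disome and Polysome1, FZD2 lower in disome and ROR2 higher in Polysome1 (0.997). This brought the called members to 1 in 80S, 3 in disome and 3 in Polysome1. The shares of all transcripts called without that culture are not given here.

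With the culture as the unit, the mean over the 5 gradient fractions was compared between 3 KO and 3 WT cultures. None of the 9 members was called by limma, and neither was any other transcript (0% of all tested), although 11344 transcripts and 2 members had an unadjusted p under 0.05. Those members were CTNNB1 (1.10 ± 0.42, adjusted p = 0.217) and AXIN2 (-0.82 ± 0.32, adjusted p = 0.217). FZD2 stood at -1.04 ± 0.50, FZD5 at 0.87 ± 0.41, FZD7 at 0.86 ± 0.52 and ROR2 at 0.62 ± 0.35. LRP6 stood at 0.08 ± 0.20 and WNT3 at 0.02 ± 0.11. Without KO culture 3, 3 members were called: CTNNB1 (1.54), AXIN2 (-1.03) and FZD2 (-1.26). The share of all transcripts called in that fit is not given here, and the 0% belongs to the fit on all cultures.

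FZD7 and FZD2 thus had values on opposite sides in several fractions, and their ratio within a library does not depend on any scaling of that library. The pair was picked after the values were seen, so the ratio is a description with no test. In Input FZD7 was 18.6 ± 3.83 times FZD2 in KO and 7.32 ± 1.37 times in WT (SD, n = 3). In Polysome1 the ratio was 16.2 ± 4.52 in KO and 3.55 ± 1.97 in WT, and in Polysome2 it was 21.0 ± 4.10 in KO and 3.90 ± 1.54 in WT. In 40S it was 8.61 ± 3.97 in KO and 0.739 ± 0.620 in WT. In these 4 fractions every KO library had a higher ratio than every WT library. The genotypes overlapped in 80S, at 3.42 ± 0.672 in KO and 2.12 ± 1.21 in WT, and in disome, at 8.002 ± 4.21 in KO and 4.38 ± 2.86 in WT. KO culture 3, which held the most transcripts of the KO cultures, had ratios of 21.9 in Input and 20.5 in Polysome2.

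**Figure D4:**
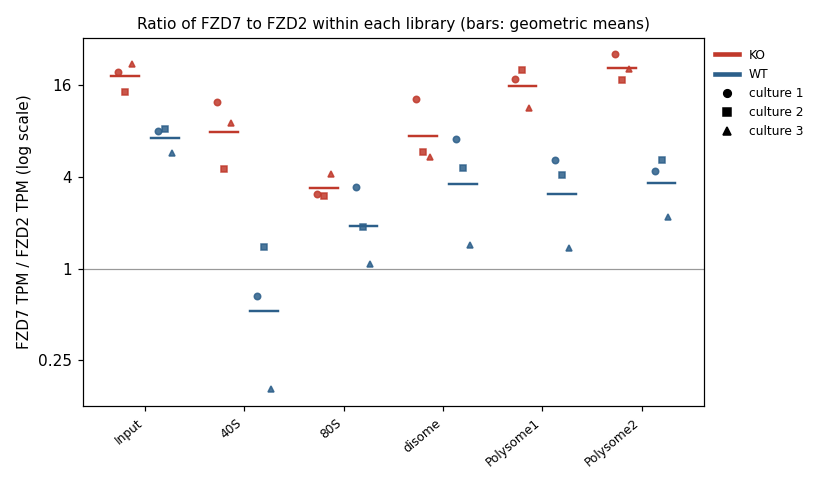
Ratio of FZD7 TPM to FZD2 TPM within each of 36 libraries on a log axis, with KO (red) left of WT (blue) in each fraction, symbols for cultures 1 to 3 and bars for geometric means. KO libraries lie above all WT libraries in Input, 40S, Polysome1 and Polysome2, and overlap with them in 80S and disome.

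The order of the groups differed between these receptors. For FZD7 in KO the means were 18.4 ± 4.25 TPM in 40S, 35.0 ± 11.5 TPM for 80S, 53.6 ± 26.3 in disome, 112 ± 66.7 in Input, 165 ± 27.9 in Polysome1 and 225 ± 105 in Polysome2 (SD, n = 3), and of these neighbours only 40S and 80S did not overlap. For FZD7 in WT they were 3.91 ± 3.27 TPM in 40S, 22.8 ± 4.61 TPM for 80S, 61.4 ± 30.3 in disome, 71.7 ± 9.79 in Polysome1, 133 ± 38.8 in Input and 147 ± 17.2 in Polysome2, where disome overlapped Polysome1 and Input overlapped Polysome2. For FZD2 in KO the means were 2.36 ± 0.756 TPM in 40S, 5.82 ± 2.54 in Input, 8.80 ± 6.33 in disome, 10.1 ± 1.30 in 80S, 10.8 ± 4.22 in Polysome1 and 10.9 ± 5.29 in Polysome2. For FZD2 in WT they were 5.47 ± 0.557 TPM in 40S, 12.4 ± 4.51 in 80S, 15.7 ± 3.90 in disome, 19.3 ± 9.92 in Input, 26.2 ± 16.4 in Polysome1 and 43.6 ± 23.7 in Polysome2. In both genotypes the neighbours of FZD2 overlapped, apart from 40S and the group next above it. By group means the lowest group was thus 40S and the highest Polysome2 for both receptors in both genotypes. For FZD2 in KO the top was hardly apart, at 10.9 TPM in Polysome2 and 10.8 TPM in Polysome1. Its highest fraction was 80S in KO culture 1, disome in KO culture 2 and Polysome2 in KO culture 3.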

How the data were processed

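Messenger RNA was sequenced as paired 75 nt reads from a stranded library kit, per the labels' protocols. The deposited table gives TPM per transcript, which the authors made with kallisto and sleuth on the genome build hg19, per the submitters' processing notes; versions are not given in the sources used here. The members and lists were chosen with earlier results of these data known. No transcript could be matched to a gene through the gene table used here (59792 genes, 0 with an Ensembl identifier), so a fixed list of further pathway genes and lists of cell type markers were not analysed here, and members are named from the list that chose them. All listed members are named, each with its closest member by Pearson's r over group means.

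The 92 ERCC rows were left out, and the filter (1 TPM or more in 3 or more libraries) kept 51052 transcripts. Then log2(TPM + 1) was fitted with limma 3.58.1 (R 4.3.3): 12 group means over 36 libraries, 24 residual degrees of freedom, a variance trend, and Benjamini-Hochberg adjustment within each of 16 comparisons at 0.05. The fit takes libraries of a culture as independent. The labels give cultures that run through all fractions: residuals of the same culture correlated across fractions with a median r of 0.50 to 0.70 in KO and 0.05 to 0.15 in WT, so culture was also used as a replicate block. The same number in KO and WT did not pair cultures (r from -0.71 to 0.11). Alternatives were other pseudocounts, filters and scalings, leaving out cultures, blocks, and fits on only the groups compared. Summaries used pandas 2.3.3 in Python 3.11.15, and figures matplotlib 3.10.9.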

Additional observations from a re-analysis of the deposited data

Results flagged for a closer look

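The KO minus WT difference of Polysome2 against Input for LRP6 was 1.36 on the log2 scale (limma adjusted p = 0.0489), and it drew attention because an interaction term tested the difference between genotypes itself. LRP6 was higher in Polysome2 than in Input in 3 of 3 KO cultures and lower in 3 of 3 WT cultures. The call was kept in 2 of 14 alternatives, with values between -1.27 and 2.46.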

How the results depend on the processing

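Of 422 alternative values of the 29 member differences that were called, 273 kept the call, 142 lost it and 7 turned direction; the cause was not tested. Depth is unknown, so its limit on the low members (LRP6, AXIN2, CTNNB1, WNT3) cannot be given. The counts below are of members called among those tested. Where no number over all tested transcripts stands beside a count, the count cannot be set against a background.

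Leaving out each culture in turn gave these ranges of called members. For KO against WT they were 1 to 3 in Input, 0 to 1 in 40S, 0 to 1 in 80S, 0 to 3 in disome, 0 to 3 in Polysome1, 0 to 3 in Polysome2 and 0 to 3 for culture means. Against WT Input they were 2 to 7 in WT 80S, 0 to 4 in WT disome, 0 to 2 in WT Polysome1 and 0 to 1 in WT Polysome2. For Polysome2 against 80S they were 0 to 5 in WT and 0 to 1 in KO, and for the KO minus WT difference of Polysome2 against Input 0 in each case. Without both KO cultures 1 and 2, called members were 0 in KO Input, 0 in KO Polysome2, 0 in KO Polysome2 against KO 80S, 0 for the KO minus WT difference of Polysome2 against Input, 2 in WT Polysome1 and 3 in WT disome; the single KO culture left was taken to vary like the other groups.

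A pseudocount of 0.1 gave 1 in KO against WT 40S, 0 in KO against WT Polysome2, 0 for the KO minus WT difference of Polysome2 against Input, 0 in WT disome, WT Polysome1 and WT Polysome2 against WT Input, and 3 in WT Polysome2 against WT 80S. Without a filter there was 1 in KO against WT Polysome2 and 2 in WT disome. The added call in WT disome was WNT5A (-0.57, limma adjusted p = 0.0117), which the filter otherwise left out. In that fit WNT5A was also called lower in WT 40S and WT 80S. A filter of 10 TPM, which leaves fewer members tested, gave 0 in KO against WT Input, 1 in 40S, 1 in Polysome2, 0 for the KO minus WT difference of Polysome2 against Input, 3 in WT 40S, 2 in WT 80S, 0 in WT disome, WT Polysome1 and WT Polysome2, 3 in WT Polysome2 against WT 80S and 2 in KO Polysome2 against KO 80S. A fit on only the groups compared gave 0 in KO against WT Input and Polysome2, 0 in WT disome, WT Polysome1 and WT Polysome2 against WT Input, 0 in KO Polysome2 against KO 80S and 0 for the KO minus WT difference of Polysome2 against Input.

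Quantile normalization gave 1 each in KO against WT Input, 40S, 80S, Polysome1 and Polysome2, 0 for the KO minus WT difference of Polysome2 against Input, 3 in WT 40S, 3 in WT 80S, 2 in WT disome and 0 in WT Polysome2; FZD2 and ROR2 in WT 40S turned to 0.34 and 0.042. Median-of-ratios scaling gave 1 in KO against WT Input, 3 in 40S, 0 for the KO minus WT difference of Polysome2 against Input, 4 in WT 40S, 2 in WT disome, 0 in WT Polysome2 and 3 in WT Polysome2 against WT 80S; FZD2 in WT 40S turned to 0.88. Over all transcripts, 1008 were called higher and 9184 lower in KO Input on TPM, and 2094 higher and 4637 lower after quantile normalization. For WT Polysome2 against WT 80S the split was 4406 higher and 2267 lower on TPM, and 2982 higher and 3335 lower after quantile normalization.

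Scaling to the ERCC total moved the median of all tested transcripts in KO against WT Polysome2 from -0.22 to -3.40, and the values below are to be read against shifts of that size. Members whose value had the opposite sign, called or not, were for KO against WT 7 of 9 over culture means, 6 each in Polysome2 and Polysome1, 5 each in 80S and 40S, 3 in disome and 1 in Input. Against WT Input they were 8 of 9 in WT disome, 7 in WT Polysome1, 4 in WT Polysome2, 1 in WT 80S and 0 in WT 40S. Under this scaling, 4 members were called lower in KO against WT disome, 7 in Polysome1, 8 in Polysome2 and 7 for culture means. Of 51052 tested transcripts, 27194, 38888, 38857 and 41631 were called lower there, so most transcripts were called too. In KO against WT Input 4 members were called lower, FZD7 (-3.30), FZD5 (-2.86), FZD2 (-3.48) and AXIN2 (-2.48), where 6898 of all transcripts were. In WT 40S 5 members were called lower, where 14723 of all transcripts were. In WT Polysome1 5 members were called higher and in WT Polysome2 8, where 30758 and 32209 of all transcripts were. In WT Polysome2 against WT 80S 8 members were called higher, where 26803 were. None was called in WT 80S, WT disome or KO Polysome2 against KO 80S. For the KO minus WT difference of Polysome2 against 80S 2 were called lower, where 5951 of all were, and against Input 0. Of the values called under either scale, the KO minus WT ones that turned in Polysome1 were FZD7 (-3.06), FZD5 (-2.98), LRP6 (-2.39) and ROR2 (-2.70). Those in Polysome2 were FZD7 (-4.79), FZD5 (-4.43), ROR2 (-4.28), FZD3 (-3.62), LRP6 (-3.12) and CTNNB1 (-2.32). Those for culture means were FZD7 (-2.56), FZD3 (-2.24), FZD5 (-2.16), ROR2 (-2.01) and LRP6 (-1.57), and the KO minus WT difference of Polysome2 against Input of LRP6 turned to -1.27. Against WT Input, LRP6 in WT disome turned to 0.20. In WT Polysome1 FZD7 turned to 2.54, uncalled, and AXIN2 (2.03), FZD3 (2.38), FZD5 (2.57), ROR2 (2.79) and LRP6 (1.06) turned, and in WT Polysome2 AXIN2 (3.34), CTNNB1 (2.13), FZD3 (2.34) and LRP6 (1.88).

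With culture as a replicate block, called members were 4 in WT disome, 2 in WT Polysome2 against WT Input and 3 in KO Polysome2 against KO 80S. CTNNB1 was added in WT 80S, and no other call of the report changed. A replicate block on the number, within the libraries of the fraction, gave 0 in KO against WT Input and 0 in Polysome2; the number does not pair KO with WT cultures.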

Other observations

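The order of FZD5 and FZD2 differed between the genotypes in some fractions. FZD5 had more TPM than FZD2 in 12 of 18 KO libraries, among them all 3 of Input and all 3 of Polysome2, and in 0 of 18 WT libraries. The ratio of FZD5 to FZD2 averaged 2.32 ± 1.18 in KO Polysome2 and 0.347 ± 0.0870 in WT Polysome2, and 1.64 ± 0.752 in KO Input and 0.745 ± 0.0582 in WT Input (SD, n = 3). In 80S it averaged 0.614 ± 0.362 in KO and 0.233 ± 0.140 in WT, and in disome 0.983 ± 0.596 in KO and 0.466 ± 0.444 in WT, with FZD5 ahead in 1 of 3 KO libraries of each. FZD2 made up 3.30% to 21.7% of the summed TPM of the 4 Frizzled transcripts in KO libraries and 9.76% to 82.7% in WT libraries. The summed TPM of the 4 Frizzled transcripts overlapped between the genotypes in Polysome2, at 260 ± 113 TPM in KO and 206 ± 38.5 TPM in WT. FZD7 was the highest of the 4 in all 18 KO libraries and in 16 of 18 WT libraries; in both exceptions, in WT 40S, FZD2 was the highest. These comparisons were chosen after the values were seen and carry no test.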
